A study of Mus musculus with 4 samples.

Results

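The amino acid and neurotransmitter transporters of the solute carrier (Slc) families were followed across the cell classes of the brain in 5XFAD mice given lipid vesicles. The members were all genes whose symbols belong to families Slc1, Slc6, Slc7, Slc17, Slc18, Slc32, Slc36, Slc38 or Slc43, leaving out names that end in os, with at least 20 unique molecular identifiers (UMIs, counted RNA molecules) over the called nuclei. Of 32285 genes in the files, 74 symbols fitted and 53 reached 20 UMIs. The 53 were 12 Slc6, 12 Slc7, 10 Slc38, 6 Slc1, 5 Slc17, 3 Slc18, 2 Slc36, 2 Slc43 and 1 Slc32 gene, and the other 21 symbols fell short.

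The animals were female 5XFAD mice, which carry transgenes for mutant human amyloid precursor protein and presenilin 1, labelled as 7 to 10 weeks old. They received engineered vesicles (EVs), 100 µL into a vein, with less phosphatidylethanolamine in the PE-low than in the PE-high group. The paper describes them as rebuilt from lipids of adipocyte vesicles, without native nucleic acids or proteins. Transferrin, a protein, was then coupled to them. Each group had 2 libraries of single nuclei from cryopreserved brain sections, and each library pooled 2 mice, so a value over libraries cannot separate mice. All groups carried the transgenes and received vesicles, so the data hold no library without either.

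Transporters of these families decide where a brain cell takes up, releases or recycles small molecules. Plasma membrane carriers of Slc1 and Slc6 clear glutamate, GABA, glycine and related compounds from the extracellular space, largely into astrocytes and nerve endings, while Slc17, Slc18 and Slc32 carriers load transmitters into synaptic vesicles. Slc7 carriers, many of them paired with a heavy chain from the Slc3 family, and Slc38 carriers move amino acids between blood, glia and neurons, and endothelial cells of the blood-brain barrier are known for several of them.

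The called nuclei numbered 12001 and 8729 in PE-low replicates 1 and 2 and 13967 and 10869 in PE-high replicates 1 and 2, of which 10292, 7598, 10077 and 9557 were kept. Median UMIs per kept nucleus were 1651.5 and 2172 in PE-low and 1240 and 1337 in PE-high. Any pair of libraries shared 19 to 35 barcodes, at most 0.347% of the smaller one. Clusters were named only from marker genes that are not transporters. This gave 9616 excitatory neuron-like, 6560 striatal projection neuron-like, 2965 inhibitory neuron-like, 2843 astrocyte-like, 4058 oligodendrocyte-like, 1011 oligodendrocyte precursor-like, 1377 microglia-like, 746 vessel-like and 158 neuroblast-like nuclei, while 7912 stayed unnamed. Levels are UMIs of a gene per 1000000 UMIs of a class in a library (CPM), given as mean ± SD over the 4 libraries, and are compared within a gene only, because UMIs were not divided by transcript length. Near-empty barcodes gave the level of free RNA in each library. The share of class UMIs estimated to be free RNA, from markers of other classes, was 11.4% to 23.0% in the mature neuron classes and 45.0% to 54.7% in microglia-like nuclei. That share times the near-empty level is the CPM that free RNA alone was estimated to give, and a class at or below it was read as background. The share is a median over the markers, so markers of other classes lie on both sides of this level. The spread over markers was not worked out, so a level above it is not by itself read as expression.

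In 1 library the vessel-like nuclei stood apart. In vessel-like nuclei of PE-low replicate 1 the interferon-induced chemokine gene Cxcl10 stood at 3.63 CPM, against 8337 CPM in PE-low replicate 2 and 6364 and 6037 CPM in PE-high replicates 1 and 2. Rsad2, another interferon-induced gene, stood at 39.9 CPM there and at 2968 to 4394 CPM in the other 3 libraries. Whether the label of the library called PE-low replicate 1 holds was not tested, and the doubt bears on each PE-low value and each comparison of the groups. Vessel values are given by library, with the mean of the other 3 libraries where PE-low replicate 1 lay above them.

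Different members were highest in different classes. Each member was assigned to the class with its highest mean level, and the ranges over libraries of that class and the next class did not overlap for 8 of 9 members led by astrocyte-like nuclei, 7 of 10 led by vessel-like nuclei and 4 of 10 led by microglia-like nuclei. The same held for 2 of 5 members led by excitatory neuron-like, 2 of 7 by inhibitory neuron-like and 2 of 3 by oligodendrocyte-like nuclei, and for 0 of 2, 0 of 1 and 0 of 6 led by oligodendrocyte precursor-like, striatal projection neuron-like and neuroblast-like nuclei. The next class is the one with the next highest mean, and neuroblast-like nuclei, further down, still reached the top range for Slc17a7 and Slc6a15. These counts describe clusters made from the same nuclei, although no member was used to make or name them. The same share over all genes was not worked out, so the counts are not read as a trait of the transporters. The levels used to assign classes were not adjusted for free RNA. For 12 of the 53 members no class exceeded near-empty barcodes in all 4 libraries. Among them were Slc17a6, assigned to microglia-like nuclei at 0.483 times the near-empty level, and Slc7a4, assigned to striatal projection neuron-like nuclei at 0.418 times.

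**Figure D1:**
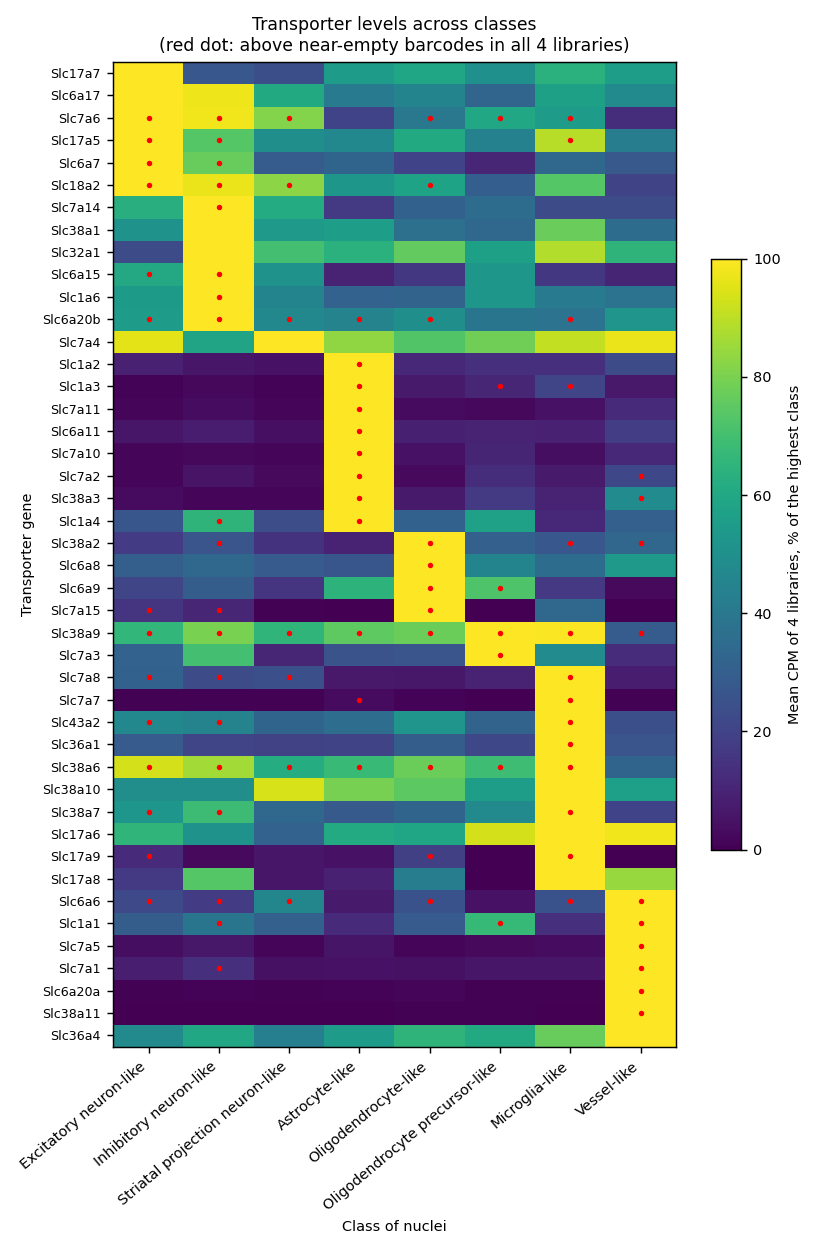
Mean CPM over 4 libraries of 44 members with at least 50 UMIs over the 8 classes drawn, as a percentage of the gene's highest class (colour), with a red dot where the class exceeded near-empty barcodes of the same library in all 4 libraries. Blocks of bright cells with red dots lie at the astrocyte-like, microglia-like and vessel-like columns, while Slc17a7, Slc6a17, Slc38a1, Slc32a1, Slc7a4, Slc38a10, Slc17a6, Slc17a8 and Slc36a4 have no dot.

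Astrocyte-like nuclei were highest for the glutamate carriers Slc1a2 and Slc1a3. Slc1a2 (GLT-1, the main glutamate uptake carrier of the forebrain) stood at 6748 and 6760 CPM in the PE-low and 6460 and 6749 CPM in the PE-high libraries, 6679 ± 146 CPM (SD, n = 4). Near-empty barcodes held 1609 to 1907 CPM of it, and no other class exceeded that undiluted level in all 4 libraries. The next class was vessel-like nuclei, at 1533 CPM. Slc1a2 also stood above the free RNA estimated for vessel-like nuclei, at least 2.05 times it. Excitatory neuron-like nuclei held 624 CPM against an estimated 217 to 282 CPM, at least 2.12 times it in each library.

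Slc1a3 (GLAST, the second astrocytic glutamate carrier) stood at 1644, 2161, 1853 and 2068 CPM in PE-low replicates 1 and 2 and PE-high replicates 1 and 2, 12.6 times the level of near-empty barcodes. Microglia-like nuclei came next at 406 ± 145 CPM and oligodendrocyte precursor-like nuclei held 211 ± 16.4 CPM, both above the 132 to 177 CPM of near-empty barcodes in all 4 libraries. Excitatory neuron-like nuclei were lowest, at 20.3 CPM. Within microglia-like nuclei PE-low replicate 1 was low for Slc1a3, at 197 CPM against 429 to 530 CPM in the other 3.

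Slc7a11 (xCT, which exchanges cystine for glutamate) stood at 344, 281, 275 and 343 CPM in astrocyte-like nuclei, 17.6 times near-empty barcodes and 8.5 times the next class. Slc7a10 (Asc-1, a carrier of serine and glycine) stood at 169 ± 11.6 CPM, 8.58 times the next class, and Slc7a2 (a carrier of arginine and lysine) at 139 ± 11.1 CPM, 3.05 times the next class. Slc38a3 (SNAT3, known for glutamine export) stood at 63.4 ± 8.28 CPM, with vessel-like nuclei next at 30.6 ± 8.27 CPM. For all 4 of these genes the astrocyte-like range lay above the range of each of the other 8 classes.

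The GABA carrier Slc6a11 (GAT-3) was also highest in astrocyte-like nuclei. Slc6a11 stood at 254, 453, 203 and 248 CPM, with PE-low replicate 2 high and the other 3 close together.

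Slc6a11 differed among astrocyte-like clusters. Cluster 4.1 (445 nuclei, led by Gpc5 and Mertk) held 725 ± 85.1 CPM, and the remaining 2398 astrocyte-like nuclei held 204 ± 50.7 CPM. That cluster made up 36.6% of the astrocyte-like nuclei of PE-low replicate 2, against 8.54%, 8.61% and 13.0% in PE-low replicate 1 and PE-high replicates 1 and 2. Outside it, Slc6a11 stood at 215, 272, 164 and 167 CPM in the same order as above, a narrower range than in the whole class.

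**Figure D2:**
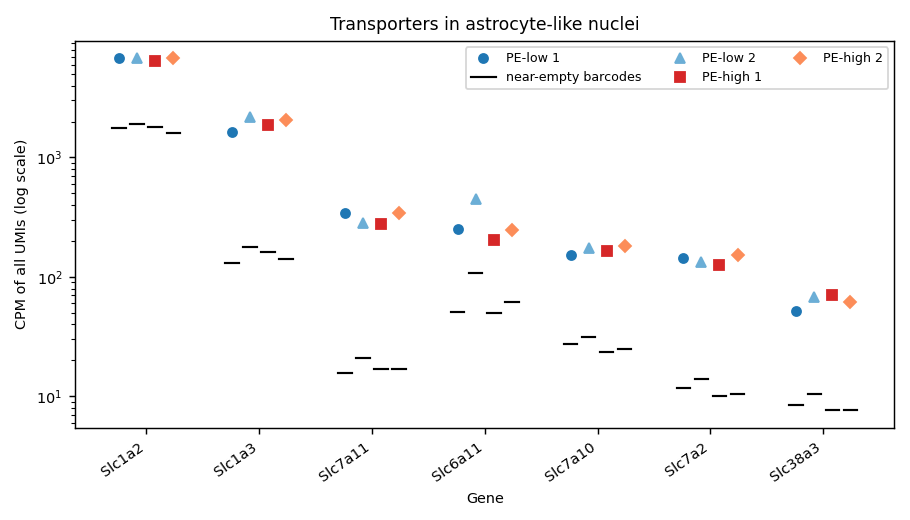
CPM (log scale) of 7 members in astrocyte-like nuclei, 1 point per library, with black bars for near-empty barcodes of the same library. Slc1a2 lies between 6460 and 6760 CPM, Slc6a11 is highest in PE-low replicate 2 at 453 CPM, and every point lies above its own bar.

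Vessel-like nuclei held a group of Slc7, Slc6 and Slc38 carriers. Slc6a6 (the taurine carrier) stood at 1071, 369, 358 and 341 CPM in PE-low replicates 1 and 2 and PE-high replicates 1 and 2, with 64.5 to 77.2 CPM in near-empty barcodes. Of the 17 members with at least 30 UMIs in vessel-like nuclei, 7 were higher in PE-low replicate 1 than in each of the other 3 libraries, 10 lay within their range and none below. The same count over all genes was not made, so it is not read as a trait of the members. For Slc6a6 PE-low replicate 1 was 3.01 times the mean of the others, and without it the mean was 356 ± 14.1 CPM. Striatal projection neuron-like nuclei came next for this gene at 245 ± 30.5 CPM, also below the lowest vessel value, and excitatory neuron-like nuclei held 119 ± 10.2 CPM.

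Slc7a5 (LAT1, the barrier carrier of large neutral amino acids) stood at 410 CPM in PE-low replicate 1 and at 155, 148 and 166 CPM in the other 3 libraries. Its near-empty level was 12.3 to 16.9 CPM, and without PE-low replicate 1 its mean in vessel-like nuclei was 156 ± 9.07 CPM. Slc7a1 (CAT-1, a carrier of cationic amino acids) stood at 327 CPM in PE-low replicate 1 and at 159, 210 and 157 CPM in the others, whose mean was 175 ± 30 CPM. Slc3a2, the heavy chain that pairs with LAT1, is not a member and was likewise highest in vessel-like nuclei, at 280, 291, 384 and 433 CPM in PE-low replicates 1 and 2 and PE-high replicates 1 and 2.

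Slc1a1 (EAAT3, known mainly as a neuronal glutamate carrier) was steady over the libraries, at 261, 269, 253 and 221 CPM in vessel-like nuclei. Oligodendrocyte precursor-like nuclei followed at 168 ± 28.5 CPM, while inhibitory neuron-like nuclei held 97.2 ± 8.06 CPM, at least 5.03 times the 16.6 to 18.6 CPM of Slc1a1 that free RNA would give, and excitatory neuron-like nuclei 73.7 CPM, at least 5.46 times. Slc38a5 (SNAT5) stood at 76.2, 27.3, 87.3 and 36.9 CPM, from 41 UMIs in all, against less than 1 CPM in near-empty barcodes.

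The vessel-like clusters fell into those with endothelial markers only (529 nuclei) and those with endothelial and mural markers (217 nuclei), and Slc38a11 and Slc6a20a were among the members whose ranges did not overlap between them, as were Slc1a2, Slc1a3, Slc1a5 and Slc6a11. Slc38a11, a member of the SNAT family, stood at 566, 254, 257 and 222 CPM in the clusters with mural markers and at 11.1 ± 11.2 CPM, from 4 UMIs, in the others. Slc6a20a (a carrier of proline and related imino acids) stood at 566, 394, 458 and 571 CPM against 17.5 ± 13.4 CPM. Over all vessel-like nuclei and without PE-low replicate 1, the means were 87.1 ± 4.05 CPM for Slc38a11 and 158 ± 23.1 CPM for Slc6a20a. Slc6a6 and Slc7a5 were found in both parts, and with mural markers Slc6a6 stood at 956, 305, 172 and 317 CPM.

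PE-low replicate 1 was also the highest library for Slc6a6 and Slc7a5 within the clusters with endothelial markers only, at 1144 CPM against 351 to 440 CPM for Slc6a6 and 507 CPM against 149 to 156 CPM for Slc7a5. Whether the interferon genes and the transporters are related in that library was not tested.

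**Figure D3:**
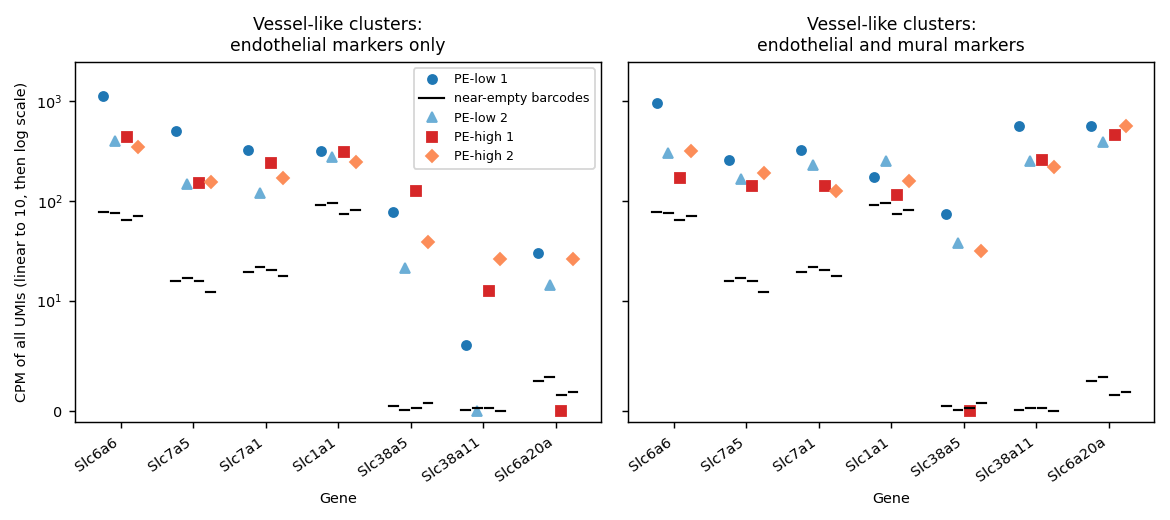
CPM of 7 members in the vessel-like clusters with endothelial markers only (left) and with endothelial and mural markers (right), 1 point per library and black bars for near-empty barcodes, on an axis that is linear to 10 CPM and logarithmic above. PE-low replicate 1 lies apart from the other 3 libraries for Slc6a6, at 1144 CPM on the left, and Slc38a11 and Slc6a20a are higher on the right.

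Microglia-like nuclei led for a set of exchangers of neutral and cationic amino acids. Slc7a8 (LAT2) stood at 344, 228, 154 and 233 CPM in PE-low replicates 1 and 2 and PE-high replicates 1 and 2, 3.23 times the level of excitatory neuron-like nuclei. Slc7a7 (y+LAT1) stood at 151, 122, 91.7 and 111 CPM and was near-absent from free RNA, at 1.12 to 1.98 CPM, and the next class, astrocyte-like nuclei, held 3.5 CPM. Slc36a1 (a proton-coupled carrier of lysosomes) stood at 90.4 ± 24.4 CPM and Slc17a9 (a vesicular nucleotide carrier) at 15.7 ± 6.45 CPM, from 14 UMIs. Slc43a2 (LAT4) stood at 101 ± 7.44 CPM, but neuroblast-like nuclei at 86.2 CPM overlapped it.

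Oligodendrocyte-like nuclei were highest for Slc38a2 (SNAT2, a carrier that responds to amino acid supply), at 353, 338, 403 and 415 CPM against 61.3 to 79.3 CPM in near-empty barcodes. They led also for Slc6a8 (the creatine carrier), at 48.3 ± 9.19 CPM, only 1.38 times near-empty barcodes, and for Slc6a9 (GlyT1, a glycine carrier), at 36.4 ± 7.63 CPM. For Slc6a9 oligodendrocyte precursor-like nuclei overlapped this range, at 26.4 ± 14.7 CPM.

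Slc1a1 was highest in a small cluster between these classes. A cluster of 63 oligodendrocyte-like nuclei led by Bcas1, St18 and Enpp6, of which Bcas1 and Enpp6 are known from newly formed oligodendrocytes, held 783, 1219, 682 and 1253 CPM of it, and a neighbouring cluster of 53 precursor-like nuclei, also led by Bcas1, held 347 ± 127 CPM. The values rest on 60 and 24 UMIs.

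Slc38a9 (a lysosomal arginine sensor and carrier) was the only member above near-empty barcodes in all 4 libraries of all 9 classes compared. Its levels ran from 133 ± 4.75 CPM in oligodendrocyte precursor-like and 132 ± 30.2 CPM in microglia-like nuclei, which overlapped, through 87.9 ± 3 CPM in excitatory neuron-like nuclei to 38.5 ± 11.7 CPM in vessel-like nuclei. The vessel-like level rests on 30 UMIs, at 54.5 CPM in PE-low replicate 1 and 33.2 ± 6.04 CPM over the other 3 libraries. In PE-high replicate 1 it was 26.2 CPM, close to the 24.6 CPM of near-empty barcodes.

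The vesicular carriers Slc17a7 and Slc32a1 stood below near-empty barcodes in all 9 classes compared, so they were read against free RNA. Slc17a7 (VGLUT1, the vesicular glutamate carrier of cortical excitatory neurons) stood at 334, 258, 290 and 288 CPM in excitatory neuron-like nuclei, while near-empty barcodes held 452, 419, 539 and 482 CPM. Free RNA alone would have given 47.8 to 85.2 CPM in this class, and the measured level was at least 3.41 times that in each library. In astrocyte-like, inhibitory neuron-like, striatal projection neuron-like, microglia-like, oligodendrocyte precursor-like and vessel-like nuclei, Slc17a7 lay below what free RNA would give in all 4 libraries, for instance 186 CPM in microglia-like nuclei against 189 to 295 CPM.

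Slc32a1 (VGAT, the vesicular GABA carrier) followed the GABA neurons in the same way. Inhibitory neuron-like nuclei held 95.2, 75.1, 64 and 75.5 CPM, at least 2.09 times the 30.4 to 36.1 CPM that free RNA would give, and striatal projection neuron-like nuclei, whose neurons also release GABA, held 54.4 ± 3.39 CPM, at least 1.71 times. Microglia-like nuclei, which should lack it, stood at 68.5 CPM, below the 72.2 to 81.9 CPM of free RNA. The unadjusted order of classes, which placed microglia-like nuclei next to inhibitory neuron-like ones, was therefore not read as an order of expression. Slc6a17, a synaptic vesicle carrier of neutral amino acids, stood at 118 ± 10.8 CPM in excitatory and 115 CPM in inhibitory neuron-like nuclei, at least 4.26 and 3.14 times free RNA.

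Other neuronal members exceeded even the undiluted near-empty level. Slc7a14 (a lysosomal member of the family) stood at 145 ± 8.92 CPM in inhibitory neuron-like nuclei, 1.66 times near-empty barcodes, and at 91.4 ± 5.93 CPM in excitatory neuron-like nuclei, above that level in 3 of 4 libraries. Slc6a15 (a carrier of branched-chain amino acids) stood at 63.5 ± 3.47 CPM in inhibitory neuron-like nuclei, and Slc7a6 at 60 ± 1.16 CPM in excitatory neuron-like nuclei, 3.7 times near-empty barcodes. Slc18a2 (VMAT2, the vesicular monoamine carrier) was low, at 14.5 ± 1.64 CPM in excitatory neuron-like nuclei.

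The vesicular glutamate carriers that were low in the large classes were high in small clusters. Slc17a6 (VGLUT2, known from thalamus and brainstem) stood at 258, 210, 293 and 191 CPM in the 156 thalamic neuron-like nuclei, from 102 UMIs. Near-empty barcodes held 21.2, 79.8, 16.5 and 26.1 CPM. PE-low replicate 2, the highest of these, also gave 109 of the 156 nuclei, while PE-high replicate 1 gave 2, and its 293 CPM of Slc17a6 is 1 UMI.

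Slc17a8 (VGLUT3) stood at 204, 245, 196 and 390 CPM in a cluster of 77 nuclei that stayed unnamed and was led by Tacr1, Slc5a7 and Chat, the gene for the enzyme that makes acetylcholine. Near-empty barcodes held 5.38 to 6.56 CPM of Slc17a8, and no large class exceeded them in all 4 libraries. The same cluster held 1208 ± 150 CPM of Slc7a14, from 242 UMIs, and 310 ± 117 CPM of Slc6a15. Slc18a3 (VAChT, which loads acetylcholine) stood at 44.5 ± 27.5 CPM there, from 9 UMIs. Slc18a3 (chr14:32462438-32464850, minus strand, GRCm38, GENCODE vM21) lies inside an intron of Chat (chr14:32408203-32465989) on the same strand with no shared exon, and how reads of an intron were counted is not given in the sources used here.

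**Figure D4:**
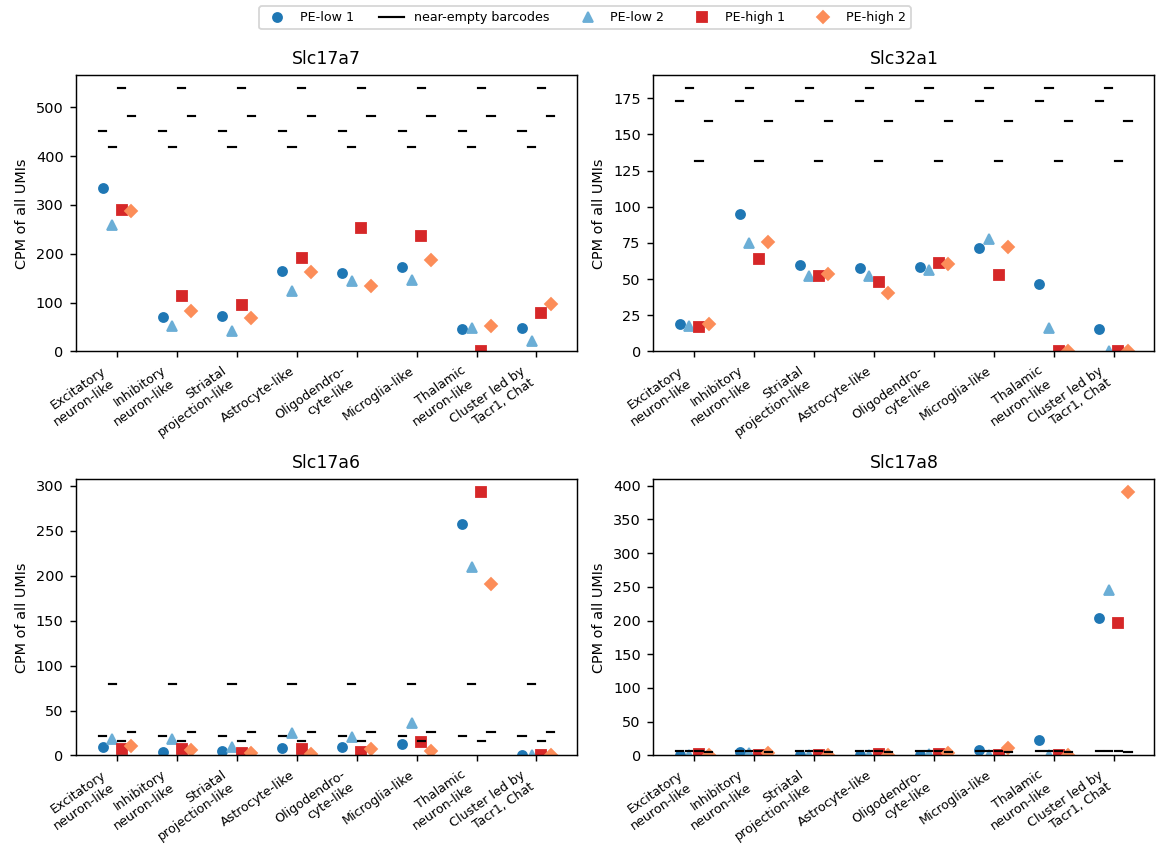
CPM of Slc17a7, Slc32a1, Slc17a6 and Slc17a8 in 6 classes, in thalamic neuron-like nuclei and in the unnamed cluster led by Tacr1 and Chat, 1 point per library, with black bars for near-empty barcodes of the same library. Slc17a7 and Slc32a1 lie below the bars in every group drawn, with their highest class points in excitatory and inhibitory neuron-like nuclei, whereas Slc17a6 lies above them in all 4 libraries only in the thalamic neuron-like nuclei, at 191 to 293 CPM (the highest of them 1 UMI), and Slc17a8 only in the cluster led by Tacr1 and Chat, at 196 to 390 CPM.

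A cluster near the vessels carried the highest level of Slc7a11. Cluster V.4 (74 nuclei, led by Cped1, Cp, Acta2 and Mgp, with fibroblast and mural markers, unnamed) held 2289, 2830, 1556 and 2099 CPM, from 176 UMIs, against 15.6 to 20.9 CPM in near-empty barcodes. Its 4 values all exceeded the astrocyte-like maximum of 344 CPM. Slc6a13 (GAT-2), at 9.61 ± 7.57 CPM in vessel-like nuclei, stood at 373 ± 204 CPM in that cluster, and Slc6a20a at 870 ± 661 CPM. The fibroblast-like cluster V.6 (48 nuclei) held 1552 ± 1190 CPM of Slc38a2, from 3041 CPM in PE-low replicate 1 to 343 CPM in PE-low replicate 2, a spread as wide as the mean.

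PE-high was then compared with PE-low in each of the 9 classes, on UMIs summed per library with edgeR's quasi-likelihood test and Benjamini-Hochberg adjustment over all genes tested in the class. The question was whether vesicle phosphatidylethanolamine shifted any of these transporters. No member had an adjusted p under 0.1 in any class, out of 206 tests covering 45 members, and 9 tests had an unadjusted p under 0.05. DESeq2 also called 0 members. The other 8 members, Slc17a8, Slc18a1, Slc18a3, Slc1a5, Slc38a4, Slc43a3, Slc6a13 and Slc6a16, were too low to be tested in any class.

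Few genes of any kind were called, so the members' count stood at the background. The share of all genes called was 0% of 8908 in astrocyte-like, 0% of 14215 in excitatory neuron-like, 0% of 11022 in inhibitory neuron-like, 0% of 12158 in striatal projection neuron-like, 0% of 5117 in microglia-like, 0% of 4990 in oligodendrocyte precursor-like, 0% of 9219 in oligodendrocyte-like and 0% of 3827 in vessel-like nuclei, and 0.161% of 623 in neuroblast-like nuclei. In counts simulated from these libraries, 2-fold changes were recovered for 76.3% of changed genes in excitatory neuron-like and 50.5% in astrocyte-like nuclei, but 0% in vessel-like nuclei, where 4-fold changes were recovered for 15.9%.

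Slc1a2, Slc1a3, Slc7a11 and Slc7a10 had estimates within 1 SE of 0 in astrocyte-like nuclei, while Slc6a11, more abundant there than Slc7a10, did not. The 5 Slc6 members tested in this class were all below 0, with a median of -0.592 and 0 called. Over all genes of the class 49.5% lay above 0, and over all members tested there 34.6%. In vessel-like nuclei the 4 Slc6 members tested were also below 0. In the other classes where Slc6 members were tested they lay on both sides of 0, for instance 5 above and 4 below in excitatory neuron-like nuclei. In astrocyte-like nuclei the log2 fold change, PE-high over PE-low, was -0.02 ± 0.188 (SE) for Slc1a2, 0.054 ± 0.201 for Slc1a3, -0.007 ± 0.219 for Slc7a11 and 0.08 ± 0.227 for Slc7a10. Slc38a2 in oligodendrocyte-like nuclei gave 0.24 ± 0.187, and Slc6a6 in striatal projection neuron-like nuclei gave -0.289 ± 0.144. With errors of this size, smaller changes in either direction were not detectable.

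The smallest unadjusted p in astrocyte-like nuclei belonged to Slc6a11, with a log2 fold change of -0.642 ± 0.247 and an adjusted p of 0.955 (edgeR). All of its PE-high values lay below both PE-low values, in the whole class and outside cluster 4.1, and the larger share of that cluster in PE-low replicate 2 moved with it. Without PE-low replicate 1 the Slc6a11 estimate was -1.011, a comparison with PE-low replicate 2 alone, and without PE-low replicate 2 it was -0.15. Slc6a9 followed at -1.11 ± 0.456, from 61 UMIs, and ran from -1.819 without PE-high replicate 2 to -0.569 without PE-high replicate 1.

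In inhibitory neuron-like nuclei Slc17a7 gave 0.701 ± 0.2, with 70 and 52.7 CPM in the PE-low and 113 and 82.2 CPM in the PE-high libraries, an unadjusted edgeR p of 0.00329 and an adjusted p of 0.96. Near-empty barcodes held 452 and 419 CPM of Slc17a7 in PE-low and 539 and 482 CPM in PE-high. All 4 class values lay below what free RNA would give (82.7 and 73.7 CPM in PE-low, 124 and 109 CPM in PE-high). Whether the Slc17a7 estimate there follows free RNA was not tested. The Slc17a7 estimate was above 0 in 8 of 8 classes tested, which share their libraries. Among them were 0.004 ± 0.121 in excitatory neuron-like and 0.599 ± 0.338 in vessel-like nuclei. In inhibitory neuron-like nuclei the Slc17a7 estimate was 0.897 without PE-low replicate 1 and 0.928 without PE-high replicate 2, while without PE-high replicate 1 it was 0.435.

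The remaining leaders by class were Slc38a1 in excitatory neuron-like nuclei (-0.336 ± 0.109), Slc43a2 in oligodendrocyte-like nuclei (-0.673 ± 0.254), Slc17a6 in striatal projection neuron-like nuclei (-1.258 ± 0.439, at 2.96 to 9.89 CPM) and Slc7a8 in microglia-like nuclei (-0.553 ± 0.276). Near-empty barcodes held more Slc17a6, 21.2 and 79.8 CPM in PE-low and 16.5 and 26.1 CPM in PE-high, highest in PE-low replicate 2. Free RNA was estimated at 16.7% to 18.3% of the UMIs of striatal projection neuron-like nuclei. Whether the Slc17a6 estimate there follows free RNA was not tested. Slc38a1 carries glutamine and stood at 64.3 ± 9.63 CPM in excitatory neuron-like nuclei, at least 3.34 times free RNA. Slc1a3 in neuroblast-like and Slc17a7 in oligodendrocyte precursor-like nuclei gave -0.589 ± 0.442 and 0.336 ± 0.289. With 1 library left out, Slc38a1 ran from -0.35 to -0.324 and Slc43a2 from -0.795 to -0.543. Slc7a8 was -0.217 without PE-low replicate 1 and -0.84 without PE-high replicate 2. Slc17a6 in striatal projection neuron-like nuclei was -0.807 without PE-low replicate 2 and -1.711 without PE-low replicate 1, and Slc1a3 in neuroblast-like nuclei -0.258 and -0.969 in the same order. Slc17a7 in oligodendrocyte precursor-like nuclei was 0.155 without PE-high replicate 1 and 0.474 without PE-high replicate 2.

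In vessel-like nuclei Slc6a6 gave -1.012 ± 0.519 with an adjusted p of 1 (edgeR), and the PE-low mean rested on replicate 1. PE-low replicate 2 stood at 369 CPM beside 358 and 341 CPM in PE-high. Without PE-low replicate 1, Slc6a6 was -0.097 and the median over the members tested was -0.001. Without PE-low replicate 2, Slc6a6 was -1.577, a comparison with PE-low replicate 1 alone.

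**Figure D5:**
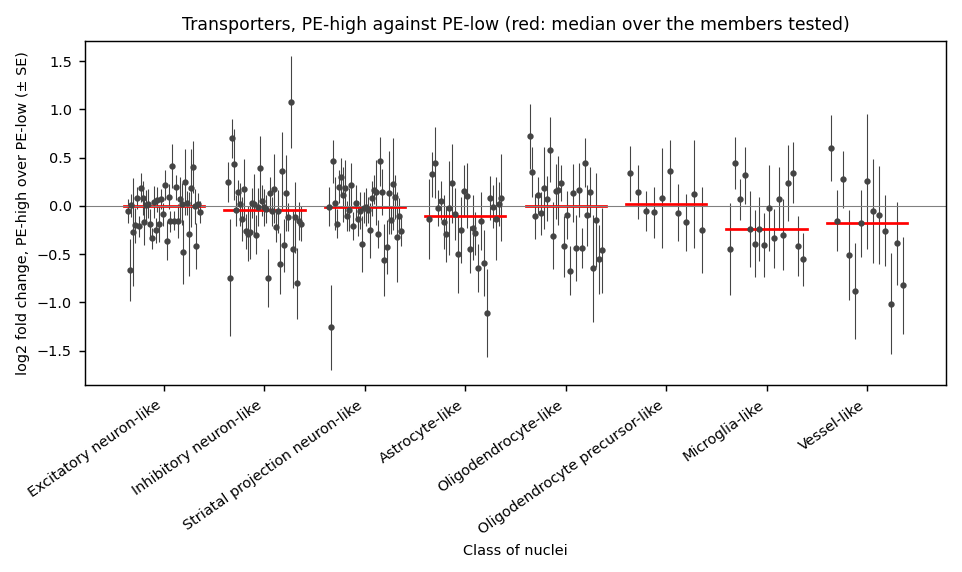
Log2 fold change, PE-high over PE-low, of each member tested in 8 classes, with bars of 1 SE and a red line at the median over the members. Points lie on both sides of 0 in each class, and the median is lowest in microglia-like nuclei, at -0.24. Above 0 lie 23.1% of members in vessel-like, 34.6% in astrocyte-like and 37.5% in microglia-like nuclei, against 49.5%, 49.5% and 49.1% of all genes. In the other classes drawn 40.5% to 50% of members lie above 0.

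Over the members tested, the median log2 fold change was -0.108 in astrocyte-like (26 members), -0.24 in microglia-like (16), -0.18 in vessel-like (13), -0.047 in inhibitory neuron-like (37), -0.015 in striatal projection neuron-like (36) and -0.147 in neuroblast-like nuclei (2). It was -0.001 in both excitatory neuron-like (40) and oligodendrocyte-like (26) nuclei, and the 10 members tested in their precursor-like class gave 0.016. Medians over all genes lay between -0.016 and 0.001. Whether changes differed between classes was tested for each gene across the 9 classes. In simulated counts this test recovered 68.8% of 4-fold changes set in astrocyte-like nuclei only, and 38 of its 175 calls were false. In the data 0 of 45 members passed, against 0.03% of 13342 genes called. Slc6a6 had the smallest unadjusted p among them, 0.0409 (edgeR), with an adjusted p of 1.

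The transporters that the transcription factor ATF4 is known to raise when amino acids run short, Slc7a11, Slc7a1, Slc7a3, Slc7a5, Slc1a4, Slc1a5, Slc38a2 and Slc6a9, gave 32 tests with 0 called, 12 estimates above 0 and 20 below. The 8-base motif TGATGNAA, the core of the element that ATF4 binds with its partners, was looked for on both strands of RefSeq promoters (GRCm38.p6, 250 bases before to 50 after the start). It lay in 2 of 8 promoters of these genes and in 3.97% of all 32851 promoters, which describes letters and not binding. The promoters of both genes are shown, 5′ to 3′ on the gene's strand with the motif in capitals, since Slc7a11 is the carrier with the strongest contrast between classes among them. Slc7a11 lies at chr3:50443564-50443863 and Slc1a4 at chr11:20332664-20332963, both on the minus strand.
Slc7a11: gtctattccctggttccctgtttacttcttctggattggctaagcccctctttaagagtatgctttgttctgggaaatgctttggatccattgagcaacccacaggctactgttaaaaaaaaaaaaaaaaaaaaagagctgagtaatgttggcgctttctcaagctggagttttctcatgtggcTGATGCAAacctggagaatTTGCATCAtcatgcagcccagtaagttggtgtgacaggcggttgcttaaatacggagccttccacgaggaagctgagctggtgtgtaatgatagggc
Slc1a4: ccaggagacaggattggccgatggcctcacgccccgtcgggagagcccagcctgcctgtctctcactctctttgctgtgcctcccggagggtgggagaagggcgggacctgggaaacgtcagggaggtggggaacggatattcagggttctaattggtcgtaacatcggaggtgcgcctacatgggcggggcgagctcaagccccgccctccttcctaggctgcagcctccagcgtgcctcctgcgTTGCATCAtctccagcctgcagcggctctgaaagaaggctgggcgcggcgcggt
In Slc7a11 the motif appears on both strands, 66 and 47 bases before the start, and both Slc7a11 and Slc1a4 missed the threshold in each class where they were tested.

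Genes that work beside the carriers were also followed, among them Glul, Gls2, Glud1, Got1, Got2, Abat, Aldh5a1, Slc3a1, Slc3a2, Phgdh, Psat1, Asns, Th, Ddc, Chat, Maoa and Maob. Of 92 tests 0 were called, with 45 estimates above 0 and 47 below. Glul (glutamine synthetase, which turns the glutamate taken up by astrocytes into glutamine) was highest in astrocyte-like nuclei at 558 ± 42.1 CPM, the class that also led for Slc1a2 and Slc1a3.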

How the data were processed

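Nuclei of female 5XFAD brain were measured in 2 PE-low and 2 PE-high libraries, grouped by the treatment in the labels. Per the submitters' processing notes, the authors used Cell Ranger 7.1.0 and mm10. Each deposited matrix holds raw UMI counts of 1 library over all barcodes. Symbols and barcodes came from lists deposited with it (unit other). Whether intronic reads were counted is not given in the sources used here. The libraries held 41470611, 43272337, 32515094 and 29472021 UMIs, and low counts limit precision through counting error as well as through the spread between libraries.

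Barcodes were called by a knee (the 0.99 quantile divided by 10) and by a test of barcodes with at least 500 UMIs against ranks 45000 to 90000. A nucleus was kept if it had 200 to 2500 genes and no more than 15% mitochondrial UMIs, whereas the limit of 3% that the study states left 2778, 2996, 1457 and 3458 nuclei and was an alternative. Scrublet called 3, 225, 1 and 2 doublets, so it was not relied on, no doublets were removed, and removal of the top 5% of scores was an alternative. Nuclei were clustered with scanpy 1.11.5 and leidenalg 0.10.2 without any gene that fits the member rule (2000 variable genes, 30 components, resolution 0.8), and each cluster was divided again. The thresholds for naming clusters were set after the clusters were seen.

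UMIs summed per class and library were tested with edgeR 4.0.16 (quasi-likelihood, TMM, filterByExpr, adjusted p under 0.1, classes with at least 10 nuclei in each library), and with DESeq2 1.42.0 as an alternative. The labels do not say whether the replicates were processed separately, so the p-values measure the spread between these libraries, which may be partly technical. The steps were tested on simulated data. Members were named by a rule: a list of well-known brain transporters, the 3 highest in each class above near-empty barcodes, and for each class any member called and the one with the smallest p. Clusters and members outside this rule were named after their values were seen. The members and lists were chosen with earlier results of these data known. Alternatives covered normalization, filters, free RNA, calling, doublets, the replicate number as a block and leaving out each library. The interaction without vessel-like nuclei and the level of Slc6a11 without cluster 4.1 were added after the data were seen, as was the comparison of a class with the level that free RNA alone would give. Some genes are not reported here by name, although counts over the lists include them. Gene positions came from GENCODE vM21.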

Additional observations from a re-analysis of the deposited data

How the results depend on the processing

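The number of members called was 0 in the main fit and under DESeq2, RLE size factors, no filter on low counts, at most 3% mitochondrial UMIs, removal of the highest doublet scores and nuclei above the knee only, and 1 with ambient RNA subtracted (Slc1a2 in neuroblast-like nuclei). In that class and fit 33 of 424 genes were called, so the call is not read as a trait of the member. Leaving out 1 library gave 0 to 7 calls: without PE-low replicate 1, Slc6a11 in astrocyte-like and excitatory neuron-like, Slc17a6 in excitatory neuron-like and Slc17a7 in inhibitory neuron-like nuclei; without PE-low replicate 2, among others, Slc1a2 and Slc38a2 in excitatory neuron-like, Slc1a3 in microglia-like and Slc6a6, Slc7a5 and Slc38a11 in vessel-like nuclei; without PE-high replicate 2, Slc17a7 in inhibitory neuron-like nuclei. These fits leave a lone sample in 1 group, which is assumed to vary like the other group. The replicate number as a block also gave 0 members called, while it raised the genes called from 0 to 108 in excitatory neuron-like and 155 in striatal projection neuron-like nuclei; same-numbered libraries deviated together with correlations of 0.0323 to 0.118, so the numbers were not taken as pairs. The interaction called 0 members under each alternative run, including without vessel-like nuclei.

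Medians of the members moved by more than the spread between libraries as follows, except where stated, and the cause was not tested. In astrocyte-like nuclei the median was -0.056 without the highest doublet scores. At most 3% mitochondrial UMIs gave -0.026 in excitatory neuron-like, -0.122 in inhibitory neuron-like, 0.217 in oligodendrocyte-like and 0.044 in striatal projection neuron-like nuclei. With ambient RNA subtracted it was -0.049, -0.086 and -0.047 in excitatory neuron-like, inhibitory neuron-like and oligodendrocyte-like and 0.34 in neuroblast-like nuclei. DESeq2 gave -0.093 in microglia-like, -0.51 in neuroblast-like, 0.074 in oligodendrocyte-like and -0.078 in precursor-like nuclei. Without a filter it was -0.071, 0.052 and -0.08 in microglia-like, oligodendrocyte-like and precursor-like nuclei, nuclei above the knee gave -0.057 and -0.075 in microglia-like and oligodendrocyte-like nuclei, and removal of doublet scores gave 0.067 in precursor-like nuclei. Leaving out 1 library gave -0.166 to -0.051 in astrocyte-like, -0.058 to 0.017 in excitatory neuron-like, -0.076 to -0.036 in inhibitory neuron-like, -0.281 to -0.04 in microglia-like, -0.431 to 0.026 in neuroblast-like, -0.048 to 0.147 in oligodendrocyte-like, -0.094 to 0.002 in precursor-like, -0.104 to 0.053 in striatal projection neuron-like and -0.346 to -0.001 in vessel-like nuclei. The ranges in inhibitory neuron-like and vessel-like nuclei stayed within the spread between libraries. At 3% mitochondrial UMIs vessel-like, microglia-like and neuroblast-like nuclei could not be fitted. The members tested differed between settings, so the medians above do not all cover the same genes. In oligodendrocyte-like nuclei 3 members were tested at 3% mitochondrial UMIs, against 26 in the main fit. In microglia-like nuclei DESeq2 covered 49 members, against 16 in the main fit. Slc6a11 in astrocyte-like nuclei stood at 204 CPM without cluster 4.1, against 289 CPM with it.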
